A study of Mus musculus with 12 samples.

Results

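Ribosomes are built in the nucleolus, and the 44 genes described here encode factors of that assembly line. They were listed by name for their known roles: subunits and regulators of RNA polymerase I, abundant nucleolar proteins, the proteins of the small nucleolar ribonucleoprotein particles (snoRNPs), and the factors that mature the small and the large ribosomal subunit. A gene counted as measured when a probe annotated with its symbol alone was detected (detection p-value under 0.05) on at least 2 of the 12 arrays, and the probe with the highest mean then stood for the gene. By this rule 35 of the 44 genes were measured, among 9791 genes with such a probe in the whole series. Of the remaining 9, Npm1, Nop56, Utp18, Ddx10, Wdr12 and Nop16 had probes detected on 0 arrays, Noc3l on 1 array, and no probe was annotated with Dkc1 or Utp20 alone. Just inside the rule, Nat10 and Rrs1 were detected on 2 arrays each. Among the 35, 23 were detected on all 12 arrays, 6 on 8 to 11 and 6 on 2 to 6.

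As background, RNA polymerase I transcribes the ribosomal RNA precursor in the nucleolus. The precursor is modified by snoRNPs, cut and folded in a large particle called the small subunit processome, and packed with ribosomal proteins into the precursors of the 40S and 60S subunits. The pathway is known as a main target of the transcription factor MYC, its output follows the growth of a cell, and a disturbed nucleolus can raise p53 through free ribosomal proteins that bind MDM2. Quiescent hematopoietic stem cells (HSCs) are known for a low rate of protein synthesis.

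The series compared mouse HSCs that express a mutant p53 (mp53) with wild-type (WT) HSCs, sorted as lineage-negative, c-kit+, Sca-1+, CD48-, CD150+ bone marrow cells, and asked how the mixed populations compete after irradiation. The 6 groups had 2 arrays each. Winner mp53 cells (GFP+) and loser WT cells (GFP-negative) came from R26-mp53 mosaic mice killed 3 weeks after 2.5 Gy. Non-competing mp53 cells came from fully recombined R26-mp53 mice and non-competing WT cells from WT mice, all killed 3 weeks after the same dose. Unirradiated mosaic mp53 and unirradiated mosaic WT cells came from mosaic mice that were not irradiated (0 Gy). Each array held RNA of 200 sorted cells, amplified in 2 rounds. The sources used here give neither the mutation in p53 nor the recombinase, age or sex of the mice. Competing and non-competing cells came from different kinds of mouse, so competition and kind of mouse cannot be told apart. The labels call the arrays biological replicates without saying whether these were separate mice, so p-values measure only the spread between these samples.

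The arrays were not equally bright, and this bears on every direction given below. The 95th percentile of raw intensity was lowest on unirradiated mosaic mp53 replicate 1 (82.3) and loser WT replicate 1 (106.6, as against 1079 on winner mp53 replicate 2, the brightest), and 19.2% to 28.9% of probes were detected per array. Of the 35 genes, 24 were detected on that dimmest array, 27 on loser WT replicate 1, and 26 to 34 on the others. Levels below are log2 intensities after quantile normalization, which gives all arrays the same distribution, and differences are log2 differences from limma with their standard error (SE). With arrays scaled on their medians alone, which keeps the brightness differences, the median of all kept probes was 0.71 log2 for winner mp53 against loser WT, against -0.02 after quantile normalization, and the direction of most of these genes turned round. The directions below therefore hold for quantile-normalized levels. In RNA of sorted cells, fewer cells of a type and less RNA per cell cannot be told apart.

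Markers of the sorted cell type and of other blood cells also differed between arrays. The HSC marker list had a summed level of 10.55 and 9.58 log2 in winner mp53 cells, against 12.99 and 12.77 in loser WT cells, with all 14 measured markers lower in winner mp53 cells. The granulocyte and monocyte list ran the other way, with all 19 measured members above their loser WT level and summed levels in winner mp53 cells of 16.04 and 15.87 against 13.34 and 15.25 in loser WT cells. The HSC list summed to 11.04 to 12.92 on the non-competing arrays and 12.66 to 13.31 on the unirradiated ones. The granulocyte and monocyte list reached 16.02 on non-competing mp53 replicate 2 and 10.61 on replicate 1. Higher in winner mp53 than in loser WT cells were also 10 of 11 erythroid markers (median 1.53), 7 of 8 of the B lineage (1.83), 7 of 7 of T and NK cells (1.36) and 16 of 17 genes of G2 and mitosis (1.17), whereas 5 of 7 megakaryocyte markers lay lower (-0.47) and those of stroma and endothelium had a median of -0.05. Under median scaling the HSC list kept its direction (median -0.80, 12 of 14 lower), as did the granulocyte and monocyte list (3.88, 19 of 19 higher), and the megakaryocyte list (0.55) and the stroma and endothelium list (0.91) turned round. The part of these cells in the levels of the nucleolar genes was not tested.

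**Figure D1:**
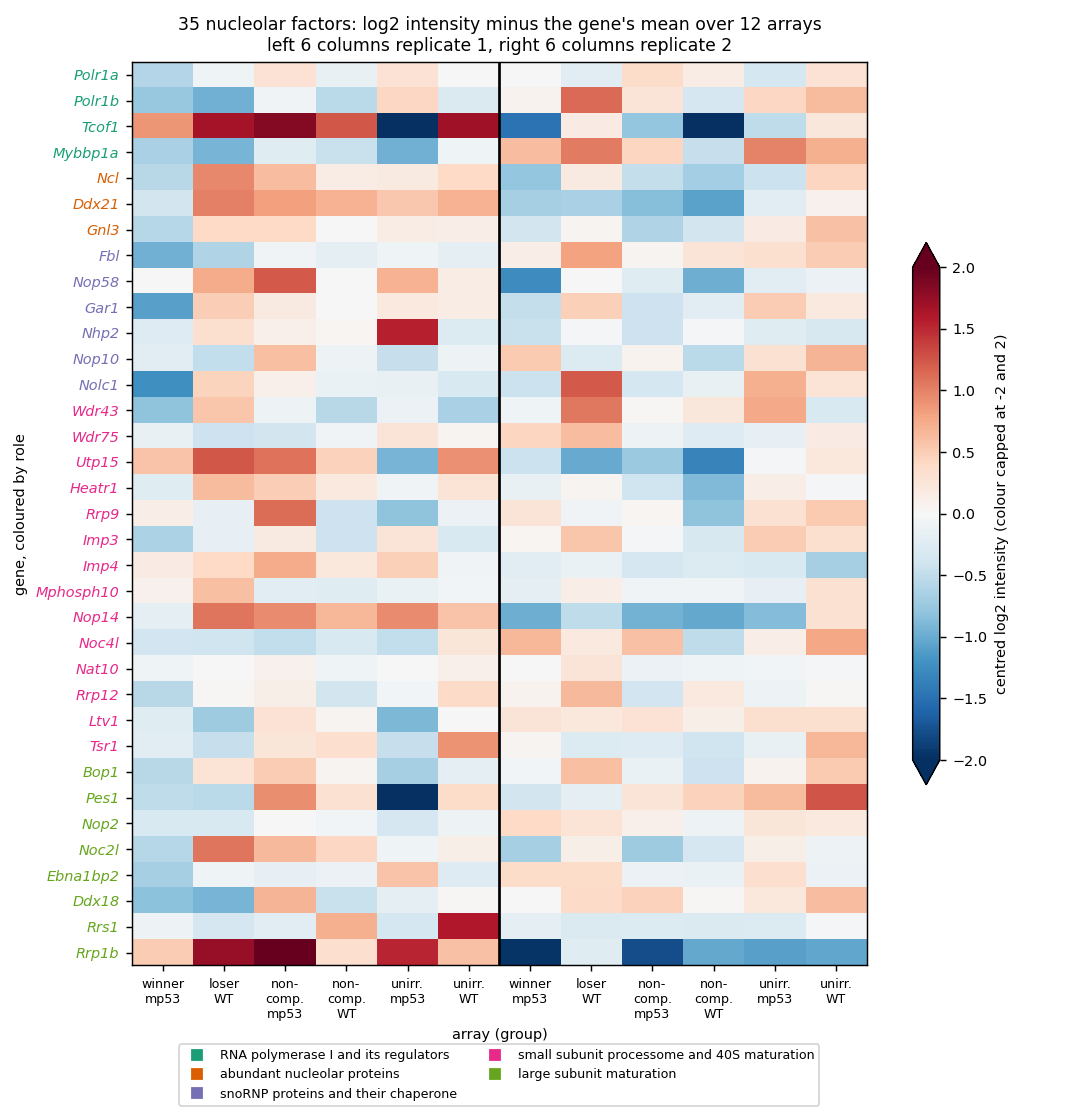
Heat map of the 35 measured nucleolar genes (rows, coloured by role) on the 12 arrays (columns, replicate 1 left and replicate 2 right), as log2 intensity minus the gene's mean over 12 arrays, with the colour capped at -2 and 2 (non-comp. and unirr. stand for the non-competing and the unirradiated mosaic groups). Gar1 and Nolc1 are blue in both winner mp53 columns and red in both loser WT columns (differences of 0.78 and 0.27 the other way under median scaling). Rrp1b differs mainly between the replicates.

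No member passed an adjusted p of 0.05 in any of the 11 comparisons made (9 between pairs of groups and 2 interactions), and limma also called 0 of the 17046 kept probes in each of them, with or without a term for the replicate number. The counts at an unadjusted p under 0.05 are given with each comparison. Over all 6 groups, the moderated F test had an unadjusted p under 0.05 for 1 of the 35 genes, Gar1 (adjusted p = 1), against 3.99% of all probes. All differences below are therefore described with their errors and not as called changes.

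Winner mp53 and loser WT cells were sorted from irradiated mosaic marrow by their GFP, so this comparison holds the kind of mouse fixed. The nucleolar genes lay lower in winner mp53 cells in 27 of 35 cases, with a median difference of -0.43 log2, and -0.52 and -0.37 within replicates 1 and 2. Of all kept probes 51.6% lay lower, with a median of -0.02. Further kept probes of the members numbered 9 (8 genes), of which 5 had the sign of the probe used and 4 the opposite sign. At an unadjusted p under 0.05 there were 5 members lower and 0 higher, against 5.89% and 6.15% of all probes. With the replicate number as a block these became 7 lower, 11.2% of all probes, and 0 higher. The groups did not overlap for 11 members lower in winner mp53 cells (25.9% of all probes) and 4 higher (23.3%). Within both replicates 21 lay lower (38% of all probes) and 7 higher (35.5%). With median scaling the median of the members was 1.04 and 34 of 35 lay higher in winner mp53 cells, so the direction rests on the normalization. The median over all 9791 genes was -0.04 with quantile normalization and 1.02 with median scaling, so relative to all genes the members lay lower on the first scale and nearly level on the second.

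By role, the snoRNP proteins had the lowest median in winner mp53 cells, at -0.75 (5 of 6 lower), next to -0.70 for the abundant nucleolar proteins (3 of 3 lower). The median was -0.29 for RNA polymerase I and its regulators (4 of 4 lower), -0.22 for the large subunit factors (6 of 8 lower) and -0.16 for the small subunit factors (9 of 14 lower). None of these medians was tested, and with median scaling all 5 were positive (0.91 to 1.29).

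**Figure D2:**
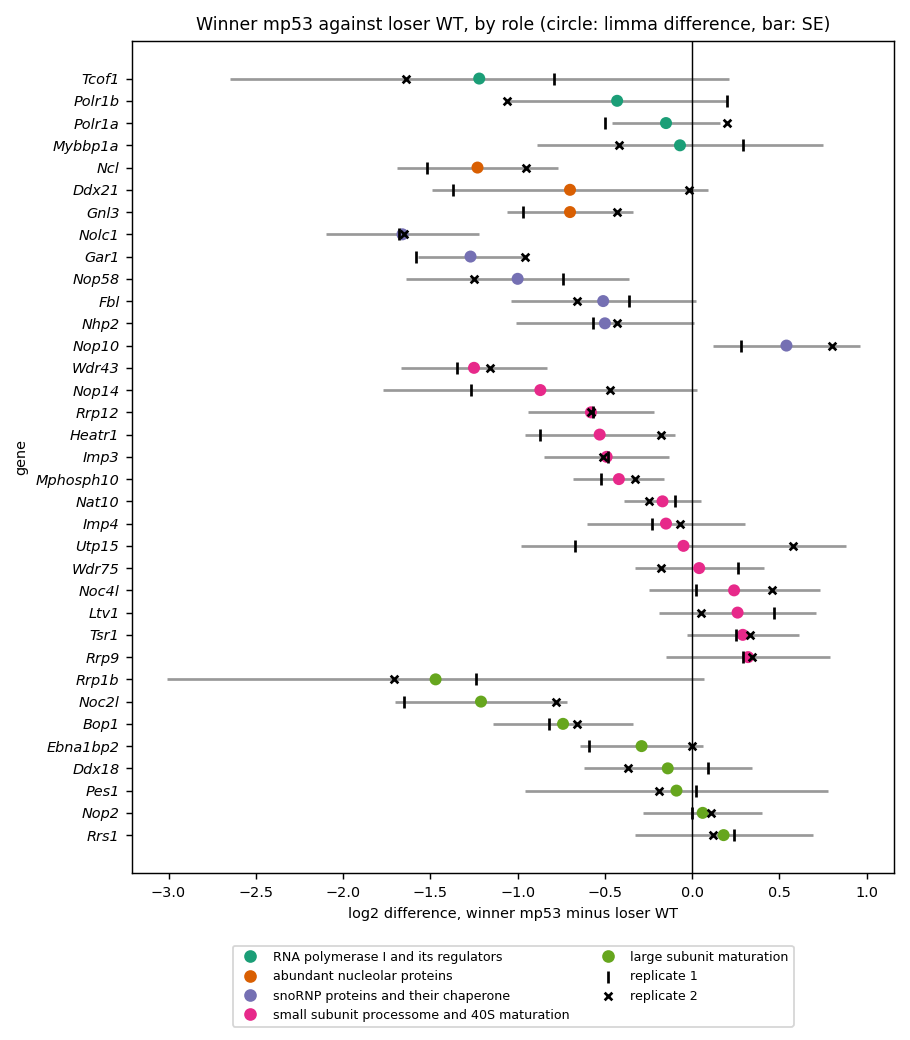
Difference of each measured gene in winner mp53 minus loser WT cells (x axis, log2; y axis, genes grouped by role), as the limma estimate (circle) with its SE (bar) and the difference within replicate 1 (vertical tick) and replicate 2 (cross). Nolc1, Gar1, Wdr43, Ncl and Noc2l lie farthest left among genes with small errors on quantile-normalized levels, while Tcof1 and Rrp1b lie as far left with errors of 1.43 and 1.54. Rrs1 was detected on 0 arrays of either group, Nop10 and Tsr1 on 0 of loser WT and Nat10 on 0 of winner mp53, so their points are not measured sizes. With median scaling 34 of 35 genes lie right of 0.

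Within RNA polymerase I, Polr1a encodes the largest, catalytic subunit. Its level was 8.39 and 8.97 in winner mp53 cells and 8.89 and 8.77 in loser WT cells, a difference of -0.15 (SE 0.31, limma adjusted p = 0.862). The groups overlapped, and both other kept Polr1a probes gave the opposite sign (0.43 and 1.11), so the sign for this gene is uncertain. Polr1b, the next largest subunit, stood at 5.34 and 6.17 in winner mp53 cells and at 5.14 and 7.23 in loser WT cells, whose replicates lay farther apart than the groups. Tcof1, which encodes treacle, a scaffold for ribosomal DNA transcription, stood at 8.23 and 5.87 in winner mp53 cells and 9.02 and 7.51 in loser WT cells. It was lower in winner mp53 cells within each replicate (-0.79 and -1.64), but replicate 1 was well above replicate 2 in both groups, and the difference of -1.22 had an SE of 1.43. A further Tcof1 probe gave 0.42. Mybbp1a, a nucleolar protein that binds MYB and represses RNA polymerase I, differed by -0.07 (SE 0.82).

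Among the abundant nucleolar proteins, Ncl encodes nucleolin, which binds ribosomal RNA precursors. Its level was 9.07 and 8.85 in winner mp53 cells and 10.59 and 9.80 in loser WT cells. The winner arrays were both below the loser arrays, with a difference of -1.23 (SE 0.46, limma adjusted p = 0.365, or 0.138 with the replicate block), and a further Ncl probe detected on 12 arrays gave -1.43. Gnl3 encodes nucleostemin, a GTP-binding protein named for its abundance in stem cells, and had 10.10 and 10.29 in winner mp53 cells and 11.07 and 10.72 in loser WT cells. These did not overlap, with a difference of -0.70 (SE 0.36, limma adjusted p = 0.467). Ddx21, an RNA helicase of nucleolar transcription and processing, was lower in replicate 1 (9.45 in winner mp53 and 10.82 in loser WT cells) and nearly level in replicate 2 (9.15 and 9.17). Npm1, nucleophosmin, was not among the genes measured.

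The snoRNP proteins fall into those of the box C/D particles, which methylate ribosomal RNA, and those of the box H/ACA particles, which make pseudouridine. Nolc1 encodes Nopp140, a chaperone of both kinds of particle. Its level was 5.86 and 6.67 in winner mp53 cells and 7.54 and 8.32 in loser WT cells. The 4 arrays did not overlap between the groups, and the difference of -1.66 (SE 0.44, limma adjusted p = 0.303, or 0.136 with the replicate block) was the lowest of all members and nearly the same in both replicates (-1.68 and -1.65). Another, dim Nolc1 probe detected on 5 arrays differed by -0.05. Gar1, a core protein of the H/ACA particle, stood at 8.93 and 9.53 in winner mp53 cells and 10.51 and 10.49 in loser WT cells. Its difference of -1.27 (SE 0.30, limma adjusted p = 0.288, or 0.136 with the block) had the lowest adjusted p of all members. Of the other H/ACA proteins, Nhp2 differed by -0.50 (SE 0.51), and Nop10 stood higher in winner mp53 cells (4.64 and 5.37) than in loser WT cells, where it was detected on 0 of 2 arrays, at least 1.1-fold.

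Fbl encodes fibrillarin, the methyltransferase of the box C/D particle. It stood at 6.14 and 7.24 in winner mp53 cells and 6.50 and 7.91 in loser WT cells. The arrays overlapped, with replicate 2 the higher of each group, and the difference was -0.51 (SE 0.53, limma adjusted p = 0.708), with -0.36 and -0.66 within the replicates. Nop58, a core protein of the same particle, stood at 9.29 and 8.03 in winner mp53 cells and 10.03 and 9.29 in loser WT cells. Its difference of -1.0 had an SE of 0.64 without the block (limma adjusted p = 0.543) and was 1 of the 7 members with an unadjusted p under 0.05 with it (adjusted p = 0.148).

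**Figure D3:**
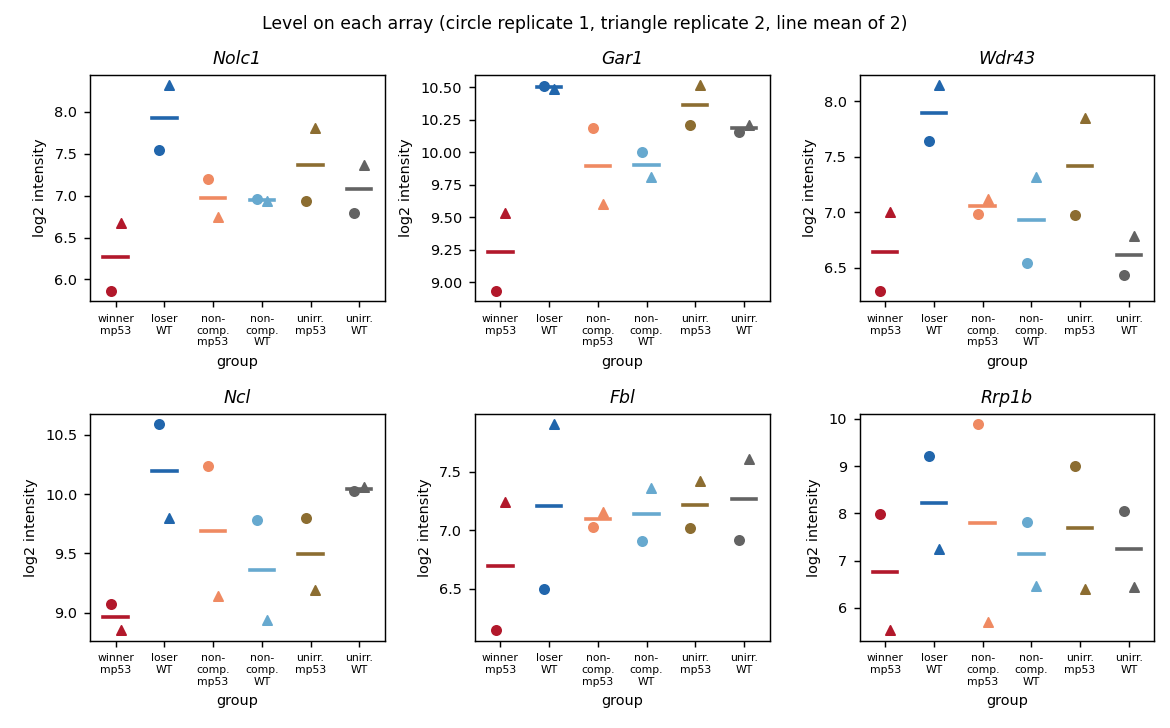
Log2 intensity (y axes, each with its own range) of Nolc1, Gar1, Wdr43, Ncl, Fbl and Rrp1b on each array of the 6 groups (x axes), with replicate 1 as circles, replicate 2 as triangles and the mean of the 2 arrays as a line. On these quantile-normalized levels winner mp53 arrays lie below loser WT arrays for Nolc1, Gar1, Wdr43 and Ncl, with differences of 0.27 to 0.88 the other way under median scaling, whereas for Fbl and Rrp1b the replicates of a group lie as far apart as the groups.

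In the small subunit processome, Wdr43 belongs to the subcomplex that meets the precursor while it is transcribed. It had 6.29 and 7.0 in winner mp53 cells and 7.64 and 8.15 in loser WT cells, with no overlap and a difference of -1.25 (SE 0.42, limma adjusted p = 0.327, or 0.136 with the block). Heatr1, of the same subcomplex, stood at 9.93 and 10.03 in winner mp53 cells and 10.80 and 10.22 in loser WT cells (difference -0.53, SE 0.43), and its further probe gave -0.61. Wdr75 (0.04, SE 0.37) and Utp15 (-0.05, SE 0.93) had differences near 0, and Utp15 was lower in winner mp53 cells in replicate 1 (-0.67) and higher in replicate 2 (0.58). Imp3, Imp4 and Mphosph10, which form the complex that joins the U3 snoRNA to the precursor, differed by -0.49, -0.15 and -0.42. Nop14 stood at 8.96 and 8.18 in winner mp53 cells and 10.23 and 8.65 in loser WT cells. Its difference of -0.87 had an SE of 0.90, and replicate 1 was higher in both groups.

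The members that act late on the 40S precursor differed in either direction. Rrp12, an export factor of the precursor, differed by -0.58 (SE 0.36), with -0.57 and -0.58 within the replicates. Ltv1, a factor of 40S export known from yeast, differed by 0.26 (SE 0.45). Tsr1, a late 40S factor, stood at 4.64 and 4.91 in winner mp53 cells and 4.39 and 4.58 in loser WT cells, where it was detected on 0 of 2 arrays. Of the processome factors, Rrp9, the U3 snoRNP protein, differed by 0.32 (SE 0.47), and Noc4l, a partner of Nop14, by 0.24 (SE 0.49). Nat10, the acetyltransferase of small subunit RNA, was detected on 2 of 12 arrays and lay at 4.46 to 4.83, so its narrow range is that of background. Among members detected on all 12 arrays the narrowest range was that of Polr1a (0.95).

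Among the large subunit factors, Noc2l encodes a nucleolar protein whose yeast counterpart escorts 60S precursors. It had 7.06 and 6.97 in winner mp53 cells and 8.71 and 7.75 in loser WT cells, with no overlap and a difference of -1.21 (SE 0.49, limma adjusted p = 0.391, or 0.152 with the block). Bop1 and Pes1 are partners in a complex needed for 60S maturation. Bop1 stood at 7.0 and 7.49 in winner mp53 cells and 7.82 and 8.15 in loser WT cells (difference -0.74, SE 0.40, limma adjusted p = 0.490), without overlap. Pes1 stood at 6.47 and 6.62 in winner mp53 cells and 6.45 and 6.81 in loser WT cells, which overlapped, with a difference of -0.09 (SE 0.87). Whether Bop1 and Pes1 differ from each other was not tested. Rrp1b, a homolog of yeast Rrp1, had the largest SE of all members, 1.54, with 7.99 and 5.52 in winner mp53 cells and 9.22 and 7.24 in loser WT cells. The methyltransferase gene Nop2 (0.06), Ebna1bp2 (-0.29) and the helicase gene Ddx18 (-0.14) differed by less than their SE, and Rrs1 was detected on 0 arrays of both groups. A further Ebna1bp2 probe, detected on 5 arrays, gave the opposite sign (0.31).

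The non-competing and unirradiated groups show where winner mp53 and loser WT cells stood among the 6 groups. On replicate 1, winner mp53 was the lowest of the 6 arrays for 15 of 35 members (20.3% of all probes) and the highest for 0, and loser WT was the highest for 11 (15.8%). Non-competing mp53 was the highest there for more, 13 (15.3%), and unirradiated mosaic mp53 the lowest for 11 (29.2%). On replicate 2, winner mp53 was the lowest for 9 (23.2%) and loser WT the highest for 15 (21.7%). But non-competing WT was the lowest for 17 (19.3%) and unirradiated mosaic WT the highest for 14 (21.3%). For Nolc1 the mean order of groups ran from loser WT (7.93 ± 0.55, SD, n = 2 arrays) through unirradiated mosaic mp53 (7.37 ± 0.61), unirradiated mosaic WT (7.07 ± 0.40), non-competing mp53 (6.97 ± 0.32) and non-competing WT (6.95 ± 0.01) to winner mp53 (6.26 ± 0.57). The means of the 4 middle groups differed by less than the SD of unirradiated mosaic mp53 cells. For Gar1 the order ran from loser WT (10.50 ± 0.01) through unirradiated mosaic mp53 (10.36 ± 0.22), unirradiated mosaic WT (10.18 ± 0.04), and the non-competing groups (9.90 ± 0.41 for mp53 and 9.90 ± 0.13 for WT) to winner mp53 (9.23 ± 0.43).

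Loser WT against non-competing WT asks how WT cells beside mp53 cells differ from WT cells of irradiated WT mice. The members lay higher in loser WT cells in 28 of 35 cases and lower in 7, with a median of 0.43, and 0.25 and 0.50 within replicates 1 and 2. Of all probes 52.7% lay higher and 47.3% lower, with a median of 0.03. Within both replicates 22 were higher (31.2% of all probes) and 2 lower (27.2%), and the groups did not overlap for 11 higher (18.6%) and 2 lower (14.9%). Before adjustment, 1 member was higher (1.86% of all probes) and 0 lower (1.97%) at p under 0.05. With the replicate block these became 4 higher (4.08%) and 0 lower (4.97%). The lowest limma adjusted p was 0.992, or 0.542 with the block. Wdr43 stood at 7.64 and 8.15 in loser WT cells and 6.54 and 7.32 in non-competing WT cells, a difference of 0.97 (SE 0.42). Ncl stood at 10.59 and 9.80 in loser WT cells and 9.78 and 8.94 in non-competing WT cells (0.83, SE 0.46), and Nolc1 at 7.54 and 8.32 against 6.96 and 6.94 (0.98, SE 0.44). None of these 3 overlapped between the groups. The dim further Nolc1 probe gave the opposite sign (-0.37), and the further Ncl probe the same sign (0.74). With median scaling the median of the members was -0.26, with Wdr43 at 0.09, Ncl at -0.15 and Nolc1 at 0.14. Of the HSC markers 13 of 14 lay higher in loser WT cells (median 0.85), and 19 of 19 granulocyte and monocyte markers lower (-2.11), and their part in the result was not tested.

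In winner mp53 against non-competing mp53 cells, 31 of 35 members lay lower in winner mp53 cells, with a median of -0.37 (55.7% of all probes lower, median -0.04). The difference was not shared by the replicates, with a median of -0.82 in replicate 1 and 0.08 in replicate 2. Without non-competing mp53 replicate 1 the median was 0.03, so that array decides it, and with median scaling it was 0.20. There were 0 members with an unadjusted p under 0.05 in either direction (1.35% of all probes lower), or 3 lower with the block (2.42%). Ncl stood at 9.07 and 8.85 in winner mp53 cells and 10.24 and 9.14 in non-competing mp53 cells, a difference of -0.73 (SE 0.46, limma adjusted p with the block 0.977). Ddx18, a helicase of 60S maturation, stood at 5.83 and 6.65 in winner mp53 cells and 7.34 and 7.11 in non-competing mp53 cells, without overlap (-0.99, SE 0.48). The summed granulocyte and monocyte markers were also far apart between the 2 non-competing mp53 arrays, as given above, and 14 of 14 HSC markers lay lower in winner mp53 cells (median -1.88).

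Non-competing mp53 against non-competing WT gives the genotype in irradiated mice of a single kind of cell. Of the members 27 of 35 lay higher in non-competing mp53 cells, with a median of 0.20 (50.8% of all probes higher and 49.2% lower, median 0.00). Within both replicates 17 were higher (25.5%) and 0 lower (22%), and the groups did not overlap for 9 higher (11.4%) and 0 lower (8.26%). The median was 0.30 and 0.16 within replicates 1 and 2, but -0.03 in the fit without non-competing mp53 replicate 1. There the remaining mp53 array was set against the mean of both WT arrays, so the direction depends on how the arrays are matched. The granulocyte and monocyte markers lay lower in non-competing mp53 cells in 19 of 19 cases (median -1.92). They summed to 10.61 on non-competing mp53 replicate 1 and 15.71 on non-competing WT replicate 1. On replicate 2 the sums were close (16.02 for mp53 and 16.11 for WT), so this difference lay mainly in replicate 1. The part of these markers in the result was not tested. There was 1 member higher at an unadjusted p under 0.05 (0.751% of all probes), or 3 with the block (1.53%). Rrp9, the single member without the block, stood at 6.54 and 5.45 in non-competing mp53 cells and 5.01 and 4.61 in non-competing WT cells (1.19, SE 0.47, limma adjusted p = 1). The non-competing mp53 arrays were both higher, but differed from each other by more than the 2 WT arrays did.

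The interaction of competition with genotype sets winner minus non-competing mp53 cells against loser minus non-competing WT cells. It was negative for 31 of 35 members, with a median of -0.66, and -1.03 and -0.41 within the replicates (54.6% of all probes negative). The marker lists moved with it, with interaction medians of -2.69 for the HSC list (14 of 14 negative), 4.36 for the granulocyte and monocyte list (19 of 19 positive) and 1.34 for genes of G2 and mitosis (16 of 17 positive), and their part in the result was not tested. Without non-competing mp53 replicate 1 the members' median was -0.33. Unadjusted p-values under 0.05 numbered 4 negative (3.21% of all probes) and 0 positive, or 7 with the block (5.7%), and the lowest limma adjusted p was 0.678, or 0.314 with the block. The 4 were Nolc1 (-1.68, SE 0.62), Ncl (-1.57, SE 0.66), Wdr43 (-1.38, SE 0.59) and Gar1 (-1.27, SE 0.42), with limma adjusted p from 0.678 to 0.724. With median scaling the median of the members was 0.43, and that of all probes 0.44, with Nolc1 at -0.17 and the other 3 above 0.

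Irradiation was compared within each population of the mosaic mice. Winner mp53 against unirradiated mosaic mp53 cells had 23 of 35 members lower in winner mp53 cells (49.8% of all probes), with a median of -0.22, and -0.49 and -0.20 within the replicates, but -0.01 without winner mp53 replicate 1. Of the HSC markers 14 of 14 lay lower in winner mp53 cells (median -2.09) and 19 of 19 granulocyte and monocyte markers higher (1.87), and their part in the result was not tested. At an unadjusted p under 0.05 there were 2 lower (6.27% of all probes) and 0 higher, or 6 lower with the block (12.6%), and the lowest limma adjusted p was 0.385, or 0.166 with the block. The share without the block lies near that of all probes. The snoRNP proteins had a median of -0.94 (5 of 6 lower) and the small subunit factors 0.04 (7 of 14 lower). Gar1 stood at 8.93 and 9.53 in winner mp53 cells and 10.21 and 10.52 in unirradiated mosaic mp53 cells (-1.13, SE 0.30), and Nolc1 at 5.86 and 6.67 against 6.94 and 7.80 (-1.10, SE 0.44). Both winner arrays lay below both unirradiated ones for each gene. The dim further Nolc1 probe gave -0.00. Under median scaling Gar1 was at 0.90, Nolc1 at 0.53 and the median of the members at 1.16.

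Loser WT against unirradiated mosaic WT cells had a median of -0.05, with 19 members lower and 16 higher in loser WT cells (51.2% of all probes lower), but medians of 0.15 and 0.09 within replicates 1 and 2, so no direction can be read from it. Wdr43 was higher and Tsr1 lower. Wdr43 stood at 7.64 and 8.15 in loser WT cells and 6.44 and 6.79 in unirradiated mosaic WT cells (1.28, SE 0.42, limma adjusted p = 1), and both loser arrays lay above both unirradiated ones, although under median scaling the difference was -0.13. Tsr1 was detected on 0 of 2 loser WT arrays and had 5.75 and 5.51 in unirradiated mosaic WT cells, so that it was at least 1.7-fold lower in loser WT cells (limma adjusted p = 1). Those were the 2 members with an unadjusted p under 0.05, 1 in each direction (2.05% of all probes lower and 1.95% higher). With the block there were 2 in each direction (4.36% lower and 5.2% higher), with Rrs1 (lower) and Nolc1 (0.85) besides. The dim further Nolc1 probe gave -0.14. No size is given for Rrs1, which was detected on 0 loser WT arrays. In unirradiated mosaic WT cells it was detected on 1 of 2 arrays (levels of 6.17 and 4.55).

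The interaction of irradiation with genotype in mosaic mice had a median of -0.29, with 21 members negative and 14 positive (48% of all probes negative), but -0.07 without winner mp53 replicate 1. The HSC list had an interaction median of -1.77 (13 of 14 negative) and the granulocyte and monocyte list 2.67 (19 of 19 positive), and their part in the result was not tested. At an unadjusted p under 0.05 there were 3 negative (8.39% of all probes) and 1 positive (5.44%), or 5 and 1 with the block (14.4% of all probes negative). The 3 were Wdr43 (-2.05, SE 0.59), Nolc1 (-1.96, SE 0.62) and Gar1 (-1.45, SE 0.42), and the positive 1 was Tsr1, for which no size is given because it was detected on 0 of 2 arrays in both loser WT and unirradiated mosaic mp53 cells. The limma adjusted p of the 3 ran from 0.307 to 0.318, and from 0.101 to 0.109 with the block. With median scaling the interaction was 1.02 for Wdr43, 1.08 for Nolc1 and 1.99 for Gar1, turned to the opposite sign.

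In mice that were not irradiated, mosaic mp53 cells had 24 of 35 members lower than mosaic WT cells (52% of all probes), with a median of -0.20, and -0.15 and -0.21 within the replicates. At an unadjusted p under 0.05 there was 1 lower (2.02% of all probes), or 4 lower (4.69%) and 1 higher (6.91%) with the block. Tsr1 was detected on 0 of 2 unirradiated mosaic mp53 arrays (4.39 and 4.70) and on both WT arrays (5.75 and 5.51), at least 1.65-fold lower (limma adjusted p = 0.869). Wdr43 went the other way, with 6.98 and 7.85 in unirradiated mosaic mp53 cells and 6.44 and 6.79 in unirradiated mosaic WT cells (0.80, SE 0.42, or -0.32 with median scaling). Tcof1 and Pes1 each had 1 very low array. Tcof1 stood at 4.39 and 6.84 in unirradiated mosaic mp53 cells and 9.05 and 7.58 in WT cells, and Pes1 at 4.35 and 7.61 against 7.35 and 8.25. The low value of each gene was on unirradiated mosaic mp53 replicate 1, the dimmest array, where neither gene was detected although both were on the 11 others. Without replicate 2 of that group, which leaves the dimmest array alone to stand for it, Pes1 was at -3.45.

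Irradiation without a competing population compared mice of different kinds, fully WT or fully mp53 against mosaic. In non-competing WT against unirradiated mosaic WT cells, 30 of 35 members lay lower in non-competing WT cells (48.7% of all probes), with a median of -0.37, and -0.12 and -0.60 within the replicates. The HSC markers had a median of -0.95 in this comparison, and the median of the granulocyte and monocyte markers was positive. With median scaling 14 of 14 HSC markers lay lower and 18 of 19 granulocyte and monocyte markers higher. The part of these markers in the result was not tested. The groups did not overlap for 14 members lower (14.1% of all probes) and 1 higher (14.2%), and 22 were lower within both replicates (25.9%). Tsr1 alone had an unadjusted p under 0.05 (1.33% of all probes lower), with 5.19 and 4.46 in non-competing WT cells and 5.75 and 5.51 in unirradiated mosaic WT cells (-0.80, SE 0.32, limma adjusted p = 1). Noc4l joined it with the block (2.76% of all probes), detected on 0 of 2 non-competing WT arrays and at least 1.51-fold lower there. In non-competing mp53 against unirradiated mosaic mp53 cells the median was 0.07, with 21 higher (52% of all probes) and 14 lower, and the replicates had opposite medians (0.26 and -0.24). None of the members had an unadjusted p under 0.05 there.

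Some of these genes differed more between the replicate numbers than between the groups. Each deposited table held 1 replicate of every group, so replicate number and table cannot be told apart. The median share of a gene's sum of squares between arrays was 45.4% for the groups and 24.8% for the replicate number over the 35 members, and 41.6% and 21% over all probes. For Rrp1b the replicate number took 75.8%, with replicate 1 above replicate 2 by a mean of 2.37 log2 and in all 6 groups. Tcof1 (1.45), Nop14 (1.34), Ddx21 (1.13) and Utp15 (1.12) were also higher on average in replicate 1, and Mybbp1a (-1.11), Polr1b (-0.73), Fbl (-0.70) and Pes1 (-0.70) lower. For Tcof1 and Pes1, however, the groups took the larger share (39% against 23.2%, and 45.4% against 13.2%). In all 6 groups alike 6 members were higher (15.8% of all probes) and 4 lower (13.3%). For Gar1, Tsr1, Nolc1 and Wdr43 the groups took 83%, 76%, 70.1% and 68.1%.

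**Figure D4:**
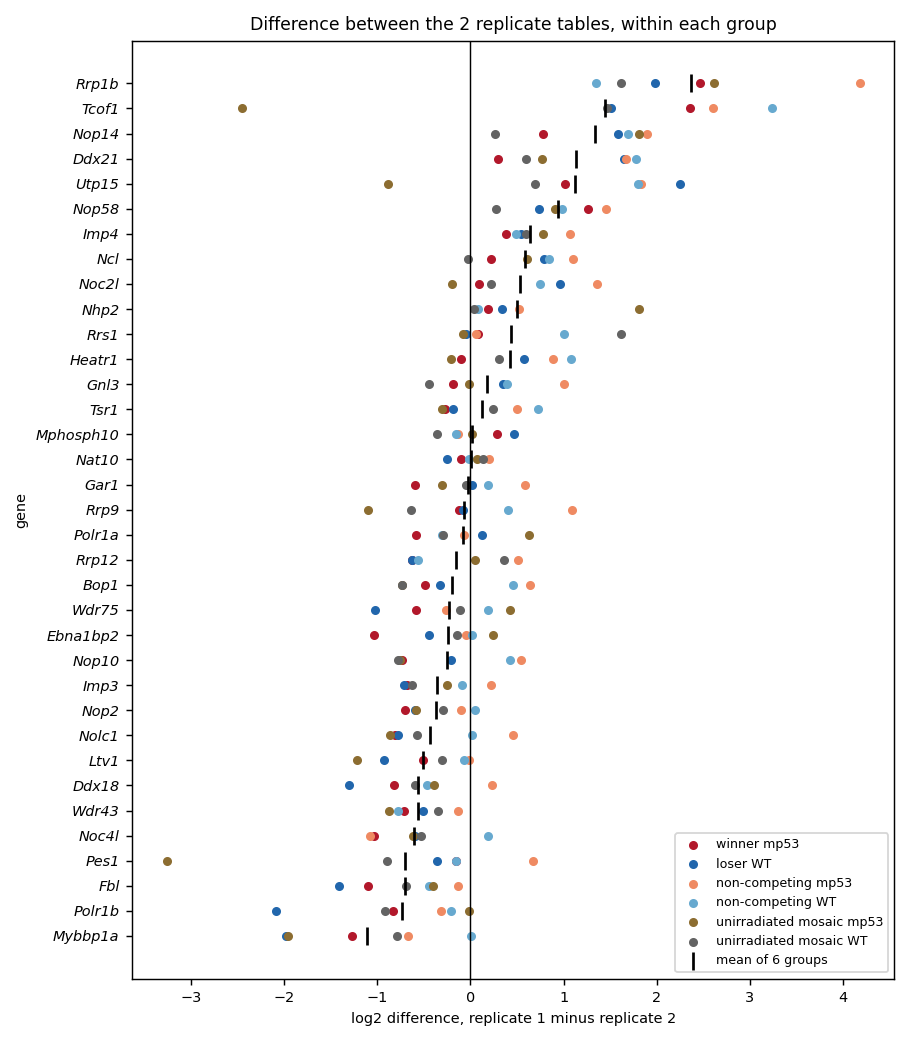
Replicate 1 minus replicate 2 (x axis, log2) of each measured gene (y axis) within each of the 6 groups (points) with the mean of 6 groups (tick). Rrp1b lies right of 0 in all 6 groups with a mean of 2.37, and Tcof1 and Pes1 each have 1 point far to the left, from unirradiated mosaic mp53 cells.

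Other ribosome biogenesis genes were listed by role to set beside the members: further RNA polymerase I machinery, further small and large subunit factors, and the exosome that trims precursor RNA. Of 119 listed, 96 were measured. In winner mp53 against loser WT they had a median of -0.20, with 62 lower and 34 higher, and 6 lower and 0 higher at an unadjusted p under 0.05, or 6.25% of the 96 against 5.89% of all probes. The further RNA polymerase I genes had a median of -0.47 (9 of 11 lower), the exosome genes -0.37 (11 of 15 lower), the further small subunit factors -0.34 (20 of 30 lower) and the further large subunit factors -0.06 (22 of 40 lower). Polr1e, a polymerase I subunit, stood at 6.74 and 6.85 in winner mp53 cells and 8.17 and 8.47 in loser WT cells (-1.53, SE 0.42), and Exosc7, an exosome subunit, at 10.21 and 10.27 against 11.05 and 11.18 (-0.88, SE 0.27). Neither gene overlapped between the groups. At the other end were Nsa2, a 60S factor (0.67, SE 0.40), and the processome genes Tbl3 (0.65, SE 0.45) and Wdr46 (0.55, SE 0.34). Among the cytosolic ribosomal protein genes, 44 of 48 measured lay lower in winner mp53 cells, with a median of -0.41. With median scaling 94 of the 96 genes (median 1.27) and 48 of 48 ribosomal protein genes (1.19) lay higher in winner mp53 cells.

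**Figure D5:**
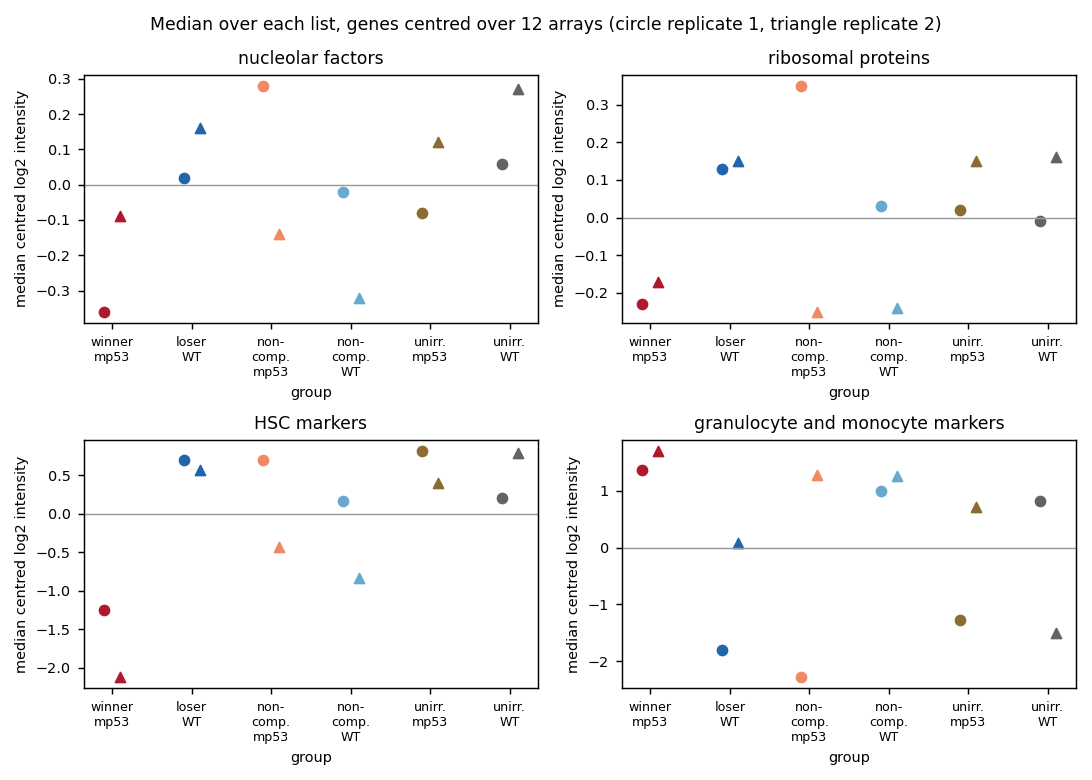
Median over each gene list of log2 intensity centred on each gene's mean (y axes, each with its own range) on each array of the 6 groups (x axes), with replicate 1 as circles and replicate 2 as triangles, for the 35 nucleolar genes, cytosolic ribosomal proteins, HSC markers, and granulocyte and monocyte markers. On quantile-normalized levels the winner mp53 medians of the nucleolar genes are -0.36 and -0.09, against 0.02 and 0.16 for loser WT, and the non-competing arrays run from 0.28 to -0.32.

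The median level of the 35 genes, each centred on its mean over 12 arrays, gives the same picture by array. It was -0.36 and -0.09 in winner mp53 cells and 0.02 and 0.16 in loser WT cells. Non-competing mp53 cells had 0.28 and -0.14, and non-competing WT cells -0.02 and -0.32. The unirradiated values were -0.08 and 0.12 for mosaic mp53 cells and 0.06 and 0.27 for mosaic WT cells. Both arrays of winner mp53 and of non-competing WT lay below 0, and both arrays of loser WT and of unirradiated mosaic WT above it. In the other groups the replicates lay on opposite sides of 0.

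MYC proteins bind the E-box CACGTG, a palindrome that reads alike on both strands, and nucleolar factors are known as MYC targets. The Myc, Mycn and Mycl probes were detected on 0 of 12 arrays, with Myc levels of 4.19 to 4.57, so the level of Myc RNA cannot be read here. Mxd1, which encodes a repressor that competes with MYC for the same partner, had 10.13 and 9.84 in winner mp53 cells and 6.18 and 7.21 in loser WT cells (3.29, SE 1.15). It was 1 of 3 measured genes of 11 listed for the MYC network, with Mxi1 at 1.29 (SE 1.15) and Mga at -0.28 (SE 0.38), and the granulocyte and monocyte markers differed alike in sign (median 2.34). In promoter windows from 250 bases before to 50 bases after the transcription start, 9 of 38 members with a window held CACGTG (23.7%), against 8.09% of 27025 genes. The 9 were Imp4, Ltv1, Mybbp1a, Nop2, Pes1, Tsr1, Utp18, Utp20 and Wdr43. Of these, Wdr43 and Tsr1 differed in opposite directions between loser WT and unirradiated mosaic WT cells on quantile-normalized levels (with median scaling Wdr43 was at -0.13 and all 35 members lay lower), while Pes1 and Ltv1 differed by less than their SE in winner mp53 against loser WT. These 4 windows are shown because, of the measured members with the motif, theirs had the smallest p in the moderated F test over the 6 groups. The unadjusted p ran from 0.0634 for Tsr1 to 0.751 for Ltv1, so the choice was made on these same data. They are from RefSeq (GRCm38.p6), 300 bases each and read 5′ to 3′ on the strand of the gene, with the E-box in capitals. Tsr1 is at chr11:74897830-74898129 (plus strand), Wdr43 at chr17:71615965-71616264 (plus), Pes1 at chr11:3963725-3964024 (plus) and Ltv1 at chr10:13193088-13193387 (minus). The motif starts 24, 17, 2 and 28 bases after the start in Tsr1, Wdr43, Pes1 and Ltv1.
Tsr1: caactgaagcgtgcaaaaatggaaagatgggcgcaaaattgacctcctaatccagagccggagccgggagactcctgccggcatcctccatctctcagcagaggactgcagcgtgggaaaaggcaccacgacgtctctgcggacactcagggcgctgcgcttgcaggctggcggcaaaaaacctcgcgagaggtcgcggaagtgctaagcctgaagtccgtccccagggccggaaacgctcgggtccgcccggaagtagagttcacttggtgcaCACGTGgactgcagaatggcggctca
Wdr43: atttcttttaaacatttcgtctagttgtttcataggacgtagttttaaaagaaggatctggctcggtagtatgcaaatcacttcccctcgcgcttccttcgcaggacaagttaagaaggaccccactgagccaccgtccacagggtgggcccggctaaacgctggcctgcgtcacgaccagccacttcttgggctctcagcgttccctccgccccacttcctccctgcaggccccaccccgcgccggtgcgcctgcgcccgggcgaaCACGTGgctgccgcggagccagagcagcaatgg
Pes1: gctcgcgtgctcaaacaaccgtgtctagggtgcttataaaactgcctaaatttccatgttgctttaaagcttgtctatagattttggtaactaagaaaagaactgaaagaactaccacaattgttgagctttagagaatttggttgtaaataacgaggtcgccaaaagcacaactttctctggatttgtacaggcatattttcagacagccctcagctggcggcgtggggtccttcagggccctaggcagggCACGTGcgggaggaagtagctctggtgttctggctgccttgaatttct
Ltv1: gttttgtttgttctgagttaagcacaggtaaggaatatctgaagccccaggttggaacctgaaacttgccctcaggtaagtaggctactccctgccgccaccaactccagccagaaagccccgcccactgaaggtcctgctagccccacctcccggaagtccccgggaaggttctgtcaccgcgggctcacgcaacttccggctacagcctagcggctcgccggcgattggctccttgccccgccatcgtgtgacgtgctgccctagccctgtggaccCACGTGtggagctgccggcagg
A match is a description of these letters and not of a bound site. Each of the 4 windows held the motif once, downstream of the annotated start.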

How the data were processed

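The authors deposited, per the file headers, linear probe intensities with detection p-values, not normalized, in 1 table per replicate number. Their table of processed intensities was used as an alternative only. The sources used here name neither the scanner software nor a genome build. Probes on several lines were averaged, which left 46632, of which 29976 carried 1 gene symbol in the platform annotation, 10 several and 16646 none. All value columns were matched to arrays.

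Intensities were background-corrected from the detection p-values (offset 16), quantile normalized and put on a log2 scale with neqc (limma 3.58.1 under R 4.3.3). The 17046 probes detected on at least 2 arrays were tested in a limma model with 6 group means and 6 residual degrees of freedom, with Benjamini-Hochberg adjustment over all of them and a threshold of 0.05. The median SE for winner mp53 against loser WT was 0.421, and the number of arrays limits the precision. A probe detected on 0 arrays of a group gives a bound there, and its fold is written "at least". The members, roles and lists were chosen with earlier results of these data known. Members written out by array were mainly the leaders of each role by moderated F p, Nolc1, Ncl and Fbl by name, and members with an unadjusted p under 0.05. Others were added after their values were seen, some for their spread and some beside a related member.

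Replicate numbers came from the labels. Differences between replicates correlated by 0.101 to 0.622 (median 0.531) over the 15 pairs of groups, all above 0.1, so the fit with the replicate number as a block is given where it moved a count. Arrays of a group correlated by 0.781 to 0.923. Alternatives covered scaling, background, filter, probes, prior, brightness and leaving out arrays. The limma fit was also run on simulated arrays that were independent of each other. These had no replicate or brightness effect, so the run says nothing on those limits.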

Additional observations from a re-analysis of the deposited data

Results flagged for a closer look

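Chosen because every array of a group moved one way and every array of its counterpart the opposite way, the following contrasts are given on quantile-normalized levels, as the mean of the replicates' log2 differences. Where an interaction was fitted, none passed. Genes detected on 0 arrays of a group involved were left out, which concerns Tsr1 and Rrs1.

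For competition (winner minus non-competing mp53, and loser minus non-competing WT), Tcof1 was at -0.83 and 1.30, Ncl at -0.73 and 0.83, Gar1 at -0.67 and 0.60, Nolc1 at -0.70 and 0.98, and Wdr43 at -0.41 and 0.97. The limma adjusted p of the interaction was 0.885 for Tcof1 and 0.678 to 0.724 for the other 4. For those 4 the winner side lay mainly in replicate 1. Within replicates 1 and 2 it was -1.18 and -0.29 for Ncl, and -1.26 and -0.07 for Gar1. For Nolc1 it was -1.34 and -0.07, and for Wdr43 -0.70 and -0.12. A further, dim Tcof1 probe gave -0.02 and 0.04 for winner and loser cells. The dim Nolc1 probe detected on 5 arrays gave -0.10 and -0.37, without opposite signs, and the further Ncl probe -0.89 and 0.74.

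For mp53 minus WT in irradiated mice, with competition (winner minus loser) and without it, the mean of the medians of the 35 nucleolar genes within replicates 1 and 2 was -0.45 and 0.23. Tcof1 was at -1.22 and 0.91 and Ncl at -1.23 and 0.33. The further Tcof1 probe gave 0.42 and 0.48, without opposite signs, and the further Ncl probe -1.43 and 0.20. The interaction is the one above. Under median scaling the winner minus loser value of Tcof1 was 0.66 and that of Ncl 0.88, so these signs rest on the normalization.

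For irradiation in mosaic mice (winner minus unirradiated mp53, and loser minus unirradiated WT), the mean of the medians within replicates 1 and 2 was -0.34 and 0.12. The medians of the fitted differences were -0.22 and -0.05, so the sign for loser WT depends on how the median is taken. Gar1 was at -1.13 and 0.32, Nolc1 at -1.10 and 0.85 and Wdr43 at -0.77 and 1.28. The dim further Nolc1 probe gave -0.00 and -0.14. The limma adjusted p of the interaction ran from 0.307 to 0.318. Seen as mp53 minus WT in irradiated and in unirradiated mosaic mice, the same arrays gave -1.27 and 0.18 for Gar1, -1.66 and 0.29 for Nolc1 and -1.25 and 0.80 for Wdr43. On the dim further Nolc1 probe these were -0.05 and -0.18, without opposite signs.

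For irradiation without a competing population (non-competing minus unirradiated mosaic, mp53 and WT), Polr1a was at 0.36 and -0.14. The mp53 side was 0.01 in replicate 1 and 0.71 in replicate 2. Of the further Polr1a probes, 1 gave 0.43 and -0.72, and the other 0.33 and 0.15, without opposite signs. The difference between mp53 and WT was not tested.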

How the results depend on the processing

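Scaling was the choice that moved the results most. With arrays scaled on their medians, the median over the 35 genes became 1.04 for winner mp53 against loser WT, -0.26 for loser WT against non-competing WT, 0.62 for non-competing mp53 against non-competing WT and -1.13 for unirradiated mosaic mp53 against WT. For irradiation it became -1.12 in loser WT, 1.16 in winner mp53, -0.79 in non-competing WT and 1.08 in non-competing mp53 cells. The interactions became 0.43 (competition) and 2.35 (irradiation). Genes that reversed in winner mp53 against loser WT were Tcof1 (0.66), Polr1a (1.91), Ncl (0.88), Gnl3 (1.29), Gar1 (0.78), Nolc1 (0.27), Wdr43 (0.70), Pes1 (1.54), Fbl (1.21) and Noc2l (0.79). Wdr43 reversed in loser WT against unirradiated mosaic WT (-0.13), and Gar1 (0.90) and Nolc1 (0.53) in winner mp53 against unirradiated mosaic mp53. Among members with an unadjusted p under 0.05, the competition interaction reversed for Ncl (0.08), Gar1 (0.32) and Wdr43 (0.17). The irradiation interaction reversed for Gar1 (1.99), Nolc1 (1.08) and Wdr43 (1.02). The cause was not tested.

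Other settings moved 3 medians by more than the spread between replicates. Winner mp53 against loser WT was -0.31 without background correction, -0.28 in the deposited processed table with a replicate block, -0.16 without a filter and -0.57 with array brightness as a covariate. Unirradiated mosaic mp53 against WT was -0.08 without a filter, -0.12 with the covariate and -0.10 without the 2 dimmest arrays. Loser WT against unirradiated mosaic WT was 0.05 in the processed table, 0.09 with the covariate and 0.05 without the 2 dimmest arrays. The mean of all kept probes turned Polr1a to 0.46 in winner mp53 against loser WT.

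Leaving out each array in turn gave medians of -0.46 to -0.26 for winner mp53 against loser WT, 0.21 to 0.45 for loser WT against non-competing WT, -0.59 to 0.03 for winner mp53 against non-competing mp53, -0.03 to 0.39 for non-competing mp53 against WT and -0.28 to -0.09 for unirradiated mosaic mp53 against WT. For irradiation they were -0.07 to 0.09 in loser WT, -0.26 to -0.01 in winner mp53, -0.41 to -0.13 in non-competing WT and -0.15 to 0.32 in non-competing mp53 cells. The interactions ran from -0.92 to -0.33 (competition) and from -0.40 to -0.07 (irradiation). In winner mp53 against loser WT, Polr1a ran from -0.44 to 0.14 (reversed without winner mp53 replicate 1), Pes1 from -0.27 to 0.10 (without loser WT replicate 2) and Fbl from -1.21 to 0.19 (without loser WT replicate 2, and 0.04 without winner mp53 replicate 1).

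Members called at an adjusted p under 0.05 numbered 0 in all 11 comparisons under every setting but 1. Without unirradiated mosaic mp53 replicate 2, the dimmest array alone stood for its group, assumed to vary like the others. In that fit Pes1 was at -3.45 for unirradiated mosaic mp53 against WT and 3.23 for non-competing against unirradiated mp53. For winner mp53 against unirradiated mosaic mp53, Pes1 was at 2.19 and Nhp2 at -1.91. Their irradiation interactions were 3.36 and -2.36. Calls from that fit are not counted here, because 1 array carries the group and many probes outside the members were called as well. The replicate block left each difference as it was, and changed no call at the adjusted threshold. The depth of signal limits Nat10 and Rrs1 most, detected on 2 arrays each.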
